A study of Mus musculus with 12 samples.

Results

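The 8 S100 genes described here are S100a1, S100a4, S100a6, S100a7a, S100a10, S100a11, S100a13 and S100a16, out of 25117 gene symbols measured by RNA sequencing in mouse embryonic fibroblasts (MEFs). The members were chosen by name from the S100 family with their levels in all 12 libraries known, so their own changes are given as a description, without p-values. All 8 were among the 12653 symbols that reached 1 TPM (the transcript share scaled to a fixed total, a relative abundance corrected for transcript length) in at least 3 libraries. Another 10 S100 symbols were in the table, of which 5 reached that level.

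All cells carried floxed Rbbp5 alleles on both chromosomes and Cre at both copies of the Rosa26 locus. Cells labelled KO had 7 days of tamoxifen and cells labelled wildtype had none, so effects of Cre activity or of the drug itself cannot be told apart from those of losing RBBP5, a core subunit of the SET1 and MLL histone H3 lysine 4 methyltransferases. Both kinds of cells then spent 16 hours in full DMEM with 10% fetal bovine serum (full medium) or in EBSS, which supplies salts and glucose but neither amino acids nor serum. The groups were KO in EBSS, wildtype in EBSS, KO in full medium and wildtype in full medium, with 3 libraries each. The libraries are labelled as biological replicates, but the labels do not say whether they came from separate cultures or embryos, so p-values measure the spread between these libraries.

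S100 proteins are small calcium sensors with a pair of EF-hand motifs, and most work as dimers that open on calcium binding and grip a target. Inside cells they bind annexins, myosins and calcium pumps, and some leave the cell and act on receptors such as RAGE. In fibroblasts S100a4, also called fibroblast-specific protein, S100a6 and S100a11 are abundant, whereas S100a1 is known mainly from muscle and the S100a7 group from skin.

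Rbbp5 followed the genotype labels in full medium but not in EBSS. It had 7.47, 9.34 and 8.31 TPM in KO full-medium libraries, against 26.2, 25.7 and 26.2 TPM in wildtype full-medium libraries (log2 change -1.53, limma with Benjamini-Hochberg adjustment, adjusted p = 3.41e-06). In EBSS it had 31.9, 24.6 and 23.0 TPM where the label was KO, against 12.45, 13.97 and 11.83 TPM where it was wildtype (log2 change 0.99, adjusted p = 3.21e-05). The EBSS libraries are therefore called by their labels, and each direction drawn between them rests on labels that Rbbp5 goes against. The libraries labelled wildtype, EBSS also stood apart from the other 9. Between 32.9% and 35.6% of their TPM came from ribosomal protein mRNAs, against 15.3% to 19.4% in other libraries, and 1122 tested genes were listed at 0 in their replicate 3, against 12 to 229 in every other library. Replicate 1 of the libraries labelled KO, EBSS was low for several S100 genes. Some results that rest on single libraries of these groups are given with and without them.

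The genes lie close together in the mouse genome (GENCODE vM21, GRCm38, all positions on chromosome 3). S100a1 (90511034 to 90514392, minus strand) and S100a13 (90514435 to 90524581, plus strand) are divergent neighbours whose starts are 43 bp apart. S100a16 (90537254 to 90543151), S100a4 (90603771 to 90606045), S100a6 (90612882 to 90624181) and S100a7a (90654017 to 90658669) follow on the plus strand, within 185 kb that reach to S100a9. S100a11 (93520488 to 93526287) and S100a10 (93555080 to 93564643) lie 2825 kb further on, with starts 34.6 kb apart. An overlapping annotated gene shares 2115 bp with S100a4 on the same strand. It is not among the deposited symbols, and how its reads were assigned is not given in the sources used here.

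Promoter windows of 250 bases before and 50 bases after the RefSeq start are shown for the 3 members with the largest rises on the log2 scale in full medium. They are RefSeq sequences on GRCm38.p6, written 5′ to 3′ on the gene's own strand with every CpG dinucleotide, the usual site of DNA methylation, in capitals. The windows of S100a1 (chr3:90514281-90514580, minus strand) and S100a13 (chr3:90514185-90514484, plus strand) share 204 bases read from opposite strands, and that of S100a7a is at chr3:90654052-90654351 on the plus strand. The RefSeq starts of S100a1 and S100a7a differ from the GENCODE starts given above. The S100a7a window lies wholly within the GENCODE span of its gene, so none of it lies before the GENCODE start.

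S100a1: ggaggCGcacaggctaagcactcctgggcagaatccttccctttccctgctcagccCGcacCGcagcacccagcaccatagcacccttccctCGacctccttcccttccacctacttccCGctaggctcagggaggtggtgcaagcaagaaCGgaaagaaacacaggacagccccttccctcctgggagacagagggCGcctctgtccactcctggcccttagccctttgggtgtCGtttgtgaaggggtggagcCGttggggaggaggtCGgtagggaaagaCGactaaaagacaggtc
S100a13: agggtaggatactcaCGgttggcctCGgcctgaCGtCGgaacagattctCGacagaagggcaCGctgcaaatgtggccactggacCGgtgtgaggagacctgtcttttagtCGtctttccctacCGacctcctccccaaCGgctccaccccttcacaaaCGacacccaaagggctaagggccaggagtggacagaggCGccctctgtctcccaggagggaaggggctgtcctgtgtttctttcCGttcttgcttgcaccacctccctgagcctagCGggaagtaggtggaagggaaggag
S100a7a: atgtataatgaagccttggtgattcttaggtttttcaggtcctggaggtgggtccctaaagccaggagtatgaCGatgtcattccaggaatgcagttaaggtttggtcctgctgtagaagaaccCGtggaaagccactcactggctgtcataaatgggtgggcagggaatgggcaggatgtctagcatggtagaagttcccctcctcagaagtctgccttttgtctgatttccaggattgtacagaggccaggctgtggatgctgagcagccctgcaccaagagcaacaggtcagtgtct

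The windows of S100a1 and S100a13 held 11 and 14 CpG dinucleotides, and that of S100a7a held 2. Over 32851 RefSeq promoter windows of the same length the median was 7, with quartiles of 3 and 20. The other members with a window had 15 (S100a11), 6 (S100a6), 2 (S100a4) and 2 and 4 (the 2 starts of S100a16). S100a10 had no entry. CpG count therefore did not order the members by their change, since S100a7a and S100a4 both had 2. Of 4 motifs searched on both strands, TATAAA was in 1 of the 8 member windows and in 13.6% of all windows, CCAAT in 1 and 37.4%, GGGCGG in 2 and 35.7%, and the AP-1 motif TGANTCA in 2 and 7.81%. None of the 4 was in the 3 windows printed.

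In full medium, S100a1, S100a7a and S100a13 differed most between KO and wildtype cells, S100a6, S100a10 and S100a11 differed less, and S100a4 and S100a16 differed by less than their spread. This comparison asks what loss of RBBP5 does to fed cells. The members' median log2 change was 0.98, beside -0.17 over all tested genes. A higher call was made for 6 of the 8 members and a lower call for 0 (unadjusted p under 0.05 for 6), where 20.1% of all tested genes were called higher and 35.8% lower. Since the members were chosen with these values known, nothing is read from that count. Under median-of-ratios scaling 3386 genes were called higher and 3410 lower, against 2545 and 4533 as deposited. The 6 members were called higher under that scaling too, and 5 of them, without S100a6, under quantile normalization and with no filter on low values.

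**Figure D1:**
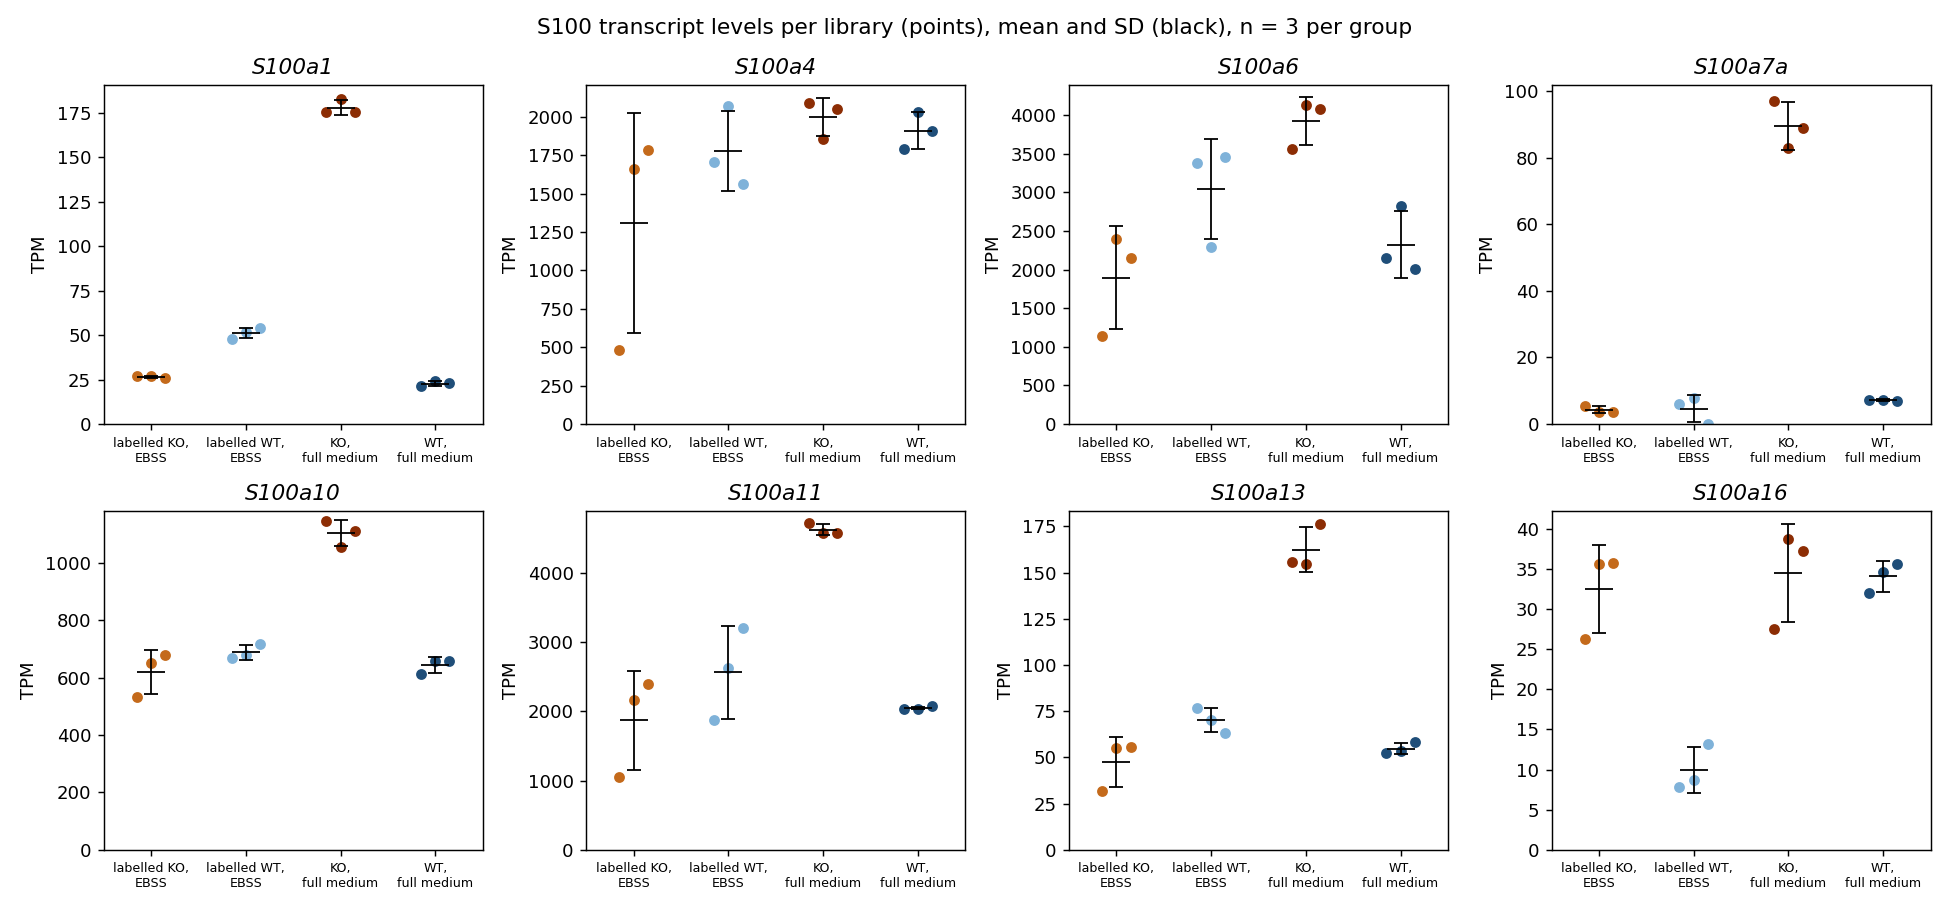
TPM of each S100 gene in every library (points), with the group mean and SD in black (n = 3), on linear axes that start at 0. The KO full-medium libraries sit above all other libraries for S100a1, S100a6, S100a7a, S100a10, S100a11 and S100a13, and those labelled wildtype, EBSS sit below all others for S100a16.

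S100a10, or p11, binds annexin A2 at the cell surface and in the cytoplasm and is the member that has lost calcium binding. It had 1147, 1056 and 1113 TPM in KO full-medium libraries, against 611, 660 and 659 TPM in wildtype full-medium libraries. The groups did not overlap, and the log2 change was 0.78 (SE 0.09). S100a11, which binds annexin A1, had 4714, 4580 and 4578 TPM in KO cells and 2037, 2034 and 2072 TPM in wildtype cells. All KO values were above all wildtype values, with a log2 change of 1.18 (SE 0.27). S100a6, or calcyclin, had 3567, 4131 and 4079 TPM in KO cells and 2150, 2820 and 2004 TPM in wildtype cells. These did not overlap either, and the log2 change was 0.77 (SE 0.26). S100a6 is the member whose call was lost when KO full-medium replicate 2 or 3 or wildtype full-medium replicate 1 or 3 was left out, with 5 members then called and a log2 change of 0.67 to 0.92 over all libraries left out in turn.

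S100a4, which binds non-muscle myosin IIA and loosens its filaments, had 2093, 1859 and 2052 TPM in KO full-medium libraries, against 1792, 2032 and 1908 TPM in wildtype full-medium libraries. The groups overlapped, with a log2 change of 0.07 (SE 0.38). S100a16, a widely expressed member, had 27.5, 38.7 and 37.2 TPM in KO cells and 31.9, 34.5 and 35.7 TPM in wildtype cells. Here too the groups overlapped, and the log2 change was 0.004 (SE 0.19).

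S100a1, which modulates the calcium pump SERCA2 and the ryanodine receptor in heart and skeletal muscle, had 175, 183 and 176 TPM in KO full-medium libraries. Wildtype full-medium libraries had 21.5, 24.0 and 22.8 TPM. The log2 change was 2.91 (SE 0.07), with every KO library above every wildtype library. S100a13, which takes part in the export of FGF1 and interleukin 1 alpha from the cell without a signal peptide, had 156, 155 and 176 TPM in KO cells and 52.5, 53.6 and 58.1 TPM in wildtype cells. The neighbours thus both stood higher in KO cells without overlap, S100a13 by a log2 change of 1.55 (SE 0.18). S100a7a, the mouse relative of human psoriasin and koebnerisin, which attract leukocytes and kill bacteria in inflamed skin, had 97.1, 82.9 and 89.0 TPM in KO cells and 7.36, 7.29 and 6.82 TPM in wildtype cells. Its log2 change of 3.47 (SE 0.61) was the largest among the members. Changes are on the log2(TPM + 1) scale, where the added 1 TPM makes low genes appear to change less.

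**Figure D2:**
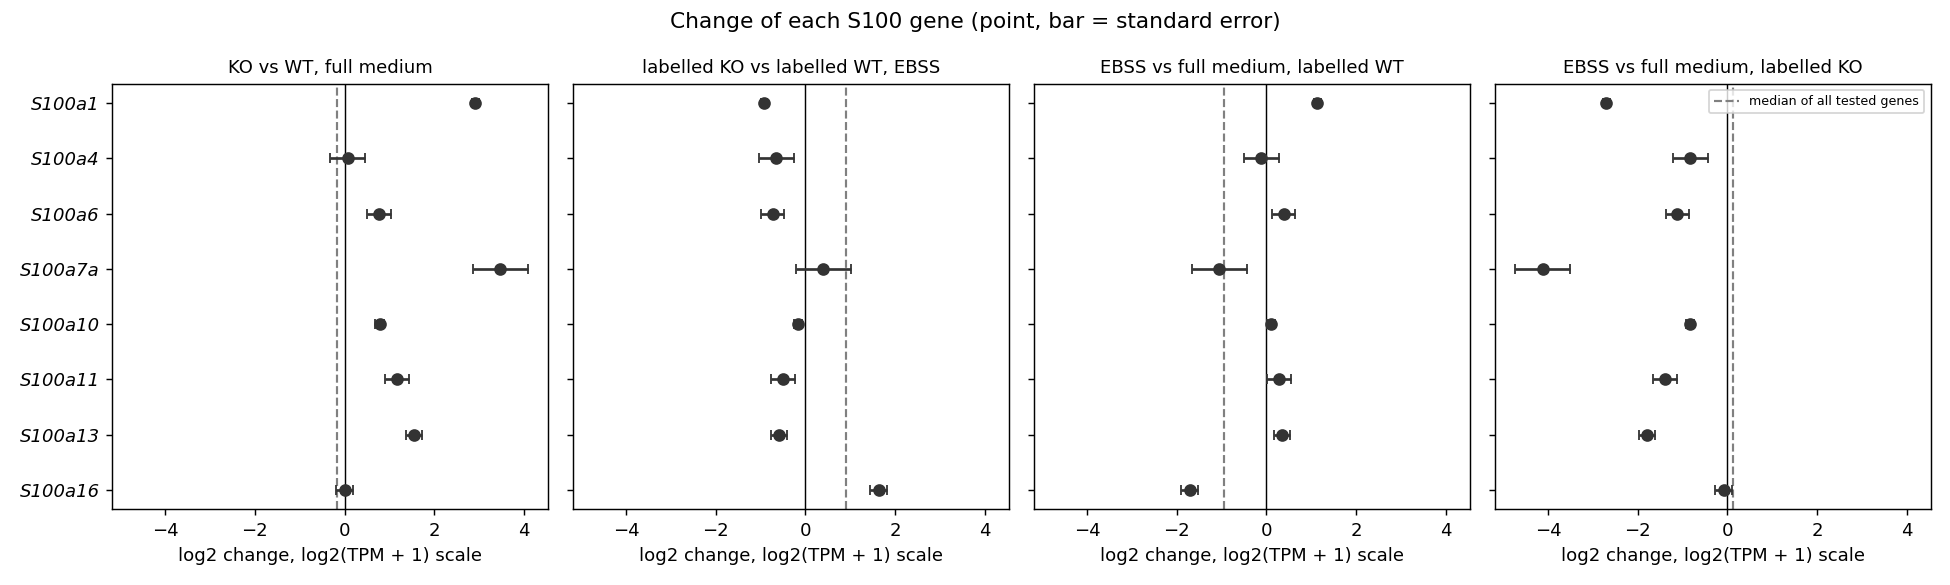
Log2 change of each S100 gene on the log2(TPM + 1) scale with its standard error, in 4 comparisons, with the median of all tested genes as a dashed line. In full medium 6 genes lie to the right of the median by more than their standard error, and in the cells labelled KO all 8 lie to its left in EBSS.

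Together the members made up 1.22% ± 0.0153 of all TPM in KO full-medium libraries and 0.709% ± 0.0538 in wildtype full-medium libraries (SD, n = 3 each), while S100a4, S100a6 and S100a11 supplied 81.2% to 90.7% of that sum in each of the 12 libraries. S100a11 stood first in KO full-medium cells, ahead of S100a6, S100a4 and S100a10, with no overlap between neighbours in that order. S100a1 at 177.9 ± 4.07 TPM and S100a13 at 162.4 ± 12.1 TPM came next and overlapped, and S100a7a at 89.6 ± 7.14 TPM stood above S100a16 at 34.5 ± 6.08 TPM. In wildtype full-medium cells S100a6 and S100a11 overlapped at the top, and the order below was S100a4, S100a10, S100a13, S100a16, S100a1 and S100a7a without overlap. S100a7a and S100a1 thus stood in higher places in KO cells than in wildtype cells.

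S100 genes outside the member list also differed between KO and wildtype cells in full medium. S100a3, known from hair follicles, had 46.2, 35.0 and 40.4 TPM in KO cells and 4.91, 3.77 and 3.87 TPM in wildtype cells (log2 change 3.00, SE 0.29, limma adjusted p = 7.67e-06, range over alternatives 6.89e-09 to 0.000105). S100a14, known from epithelia, had 10.8, 11.2 and 9.78 TPM in KO cells and 0.182, 0.174 and 0.273 TPM in wildtype cells (log2 change 3.26, SE 0.61, limma adjusted p = 0.000932, range over alternatives 3.5e-10 to 0.00518). Neither gene overlapped between the groups, though S100a14 reached 1 TPM only in the KO full-medium libraries and 1 EBSS library and so entered the test through the group where it is high. S100a2 had 2.02, 1.49 and 3.42 TPM in KO cells and was listed at 0, 0.0427 and 0 TPM in wildtype cells (limma adjusted p = 1.36e-05), but it reached 1 TPM only in the 3 KO full-medium libraries, so it could enter the test only through the group where it is high. It also lies within the annotated span of S100a3, and reads could be split between them. S100a5 averaged 5.47 TPM in KO cells and 1.48 TPM in wildtype cells (log2 change 1.34, limma adjusted p = 0.00999), and its adjusted p reached 0.103 with a pseudocount of 0.1. S100g, the intestinal calbindin on chromosome X, averaged 0.359 TPM in KO cells and 1.62 TPM in wildtype cells (log2 change -0.94, limma adjusted p = 0.0252), with an adjusted p of up to 0.323 under quantile normalization.

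The 5 tested genes outside the list were all called, 4 higher and 1 lower. Of all tested genes 20.1% were called higher and 35.8% lower. When KO full-medium replicate 1, 2 or 3 was left out, S100a2 was no longer tested, and 3 of the others were called. In those fits 1938 to 2142 of all genes were called higher and 3843 to 4198 lower. The higher calls of S100a2 and S100a14 follow from how they entered the test, so nothing is read from the count. The remaining S100 symbols were near or at 0. S100a8 was between 0.699 and 1.99 TPM in KO full-medium libraries and between 0 and 0.293 TPM in wildtype full-medium libraries, S100a7l2 was listed at 0 in all 12 libraries, and S100a9 was above 0 in 1 library, at 0.132 TPM. Of the fused-type S100 genes of the skin barrier, such as Hrnr and Tchh, 6 of 7 were in the table and 0 reached the level for testing.

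On the S100a1 side of the cluster 4 flanking genes were tested, and Pglyrp4, beyond its other end, was listed at 0.0201 TPM or less on average in each group and was not tested. Snapin, of the vesicle fusion machinery, averaged 54.2 TPM in KO full-medium cells and 33.4 TPM in wildtype full-medium cells (log2 change 0.68, limma adjusted p = 0.000176). Ilf2, an RNA-binding protein, averaged 154 TPM in KO cells and 124 TPM in wildtype cells (log2 change 0.31, limma adjusted p = 0.00405). Chtop, of the mRNA export machinery and the next gene to S100a1, averaged 85.0 TPM in KO cells and 105.8 TPM in wildtype cells (log2 change -0.32, limma adjusted p = 0.00781). Npr1, a natriuretic peptide receptor, averaged 1.29 TPM in KO cells and 2.25 TPM in wildtype cells (log2 change -0.51, limma adjusted p = 0.0258). Of the 10 S100 genes tested in the cluster, S100a4 and S100a16 were not called, and both lie between S100 genes that stood higher in KO cells. Of all tested genes 20.1% were called higher and 35.8% lower. The members were chosen with their values known, and S100a2 and S100a14 entered the test through the KO group. No pattern along the cluster is read from these calls.

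**Figure D3:**
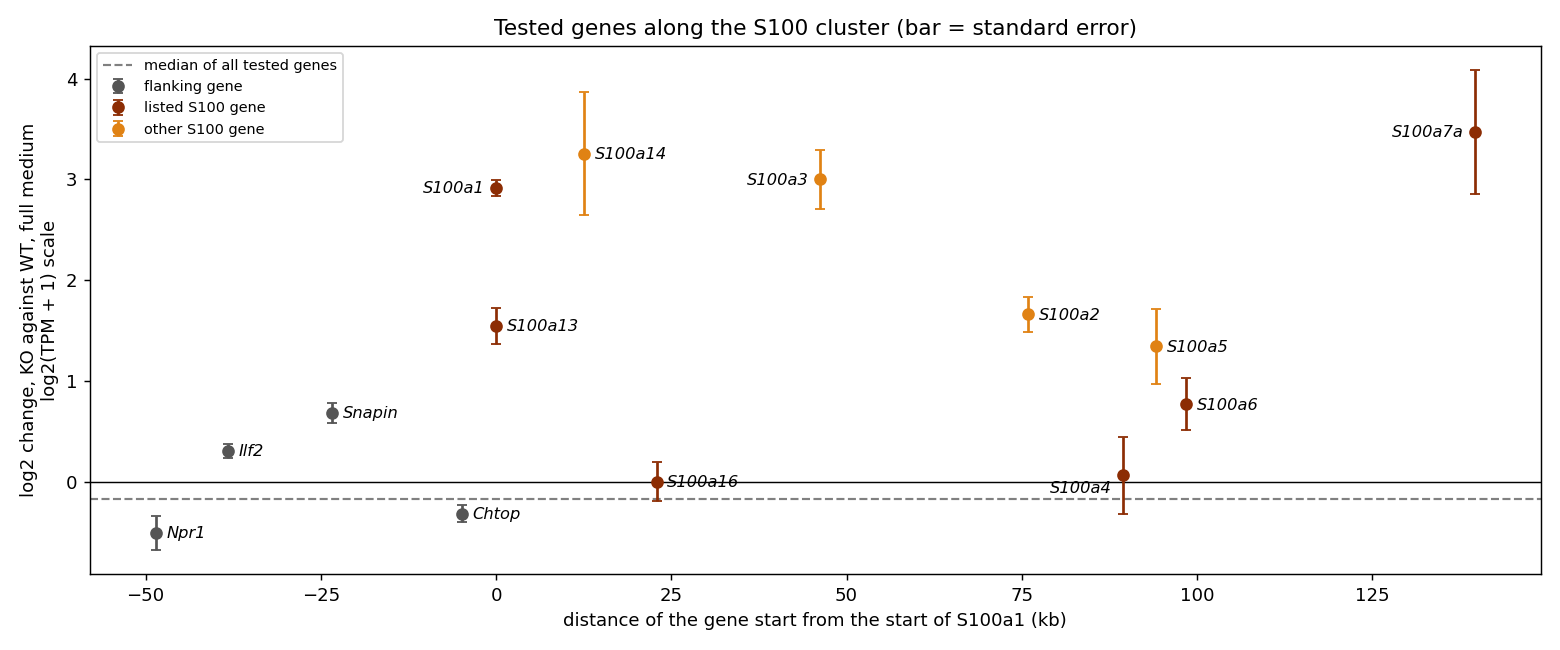
Log2 change with its standard error, KO against wildtype in full medium, for the tested genes of the S100 cluster and its flank, against the distance of each gene start from the start of S100a1 in kb. The points of S100a1, S100a13, S100a14, S100a3, S100a2, S100a5, S100a6 and S100a7a lie above the 4 flanking genes, while S100a4 and S100a16 lie near 0 between them. S100a6 (0.77, SE 0.26) lies above Snapin (0.68, SE 0.10) by less than its standard error. S100a2 and S100a14 entered the test through the KO group.

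Of 62 tested genes for proteins that S100 members bind or that share their EF-hand, in 4 lists, 12 rose and 26 fell in KO cells. Their median log2 change was -0.13 beside -0.17 over all tested genes, where 20.1% were called higher and 35.8% lower, and no difference of the lists from all genes is read from these counts or those of the single lists. Among annexins and Ahnak 1 of 10 rose and 3 fell. Anxa2, the partner of S100a10, fell to 1163, 1032 and 1099 TPM in KO cells, against 2043, 1939 and 2012 TPM in wildtype cells (log2 change -0.86, SE 0.13, limma adjusted p = 0.000249, range over alternatives 1.07e-07 to 0.0056). S100a10 and Anxa2 thus stood apart in opposite directions, and their TPM ratio was 1.01 ± 0.0175 in KO cells and 0.322 ± 0.0210 in wildtype cells (SD, n = 3 each). Anxa6 fell too (log2 change -1.40, limma adjusted p = 1.05e-05), as did Anxa7 (-0.59, limma adjusted p = 0.000659), and Anxa4 rose (0.43, limma adjusted p = 0.00381).

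**Figure D4:**
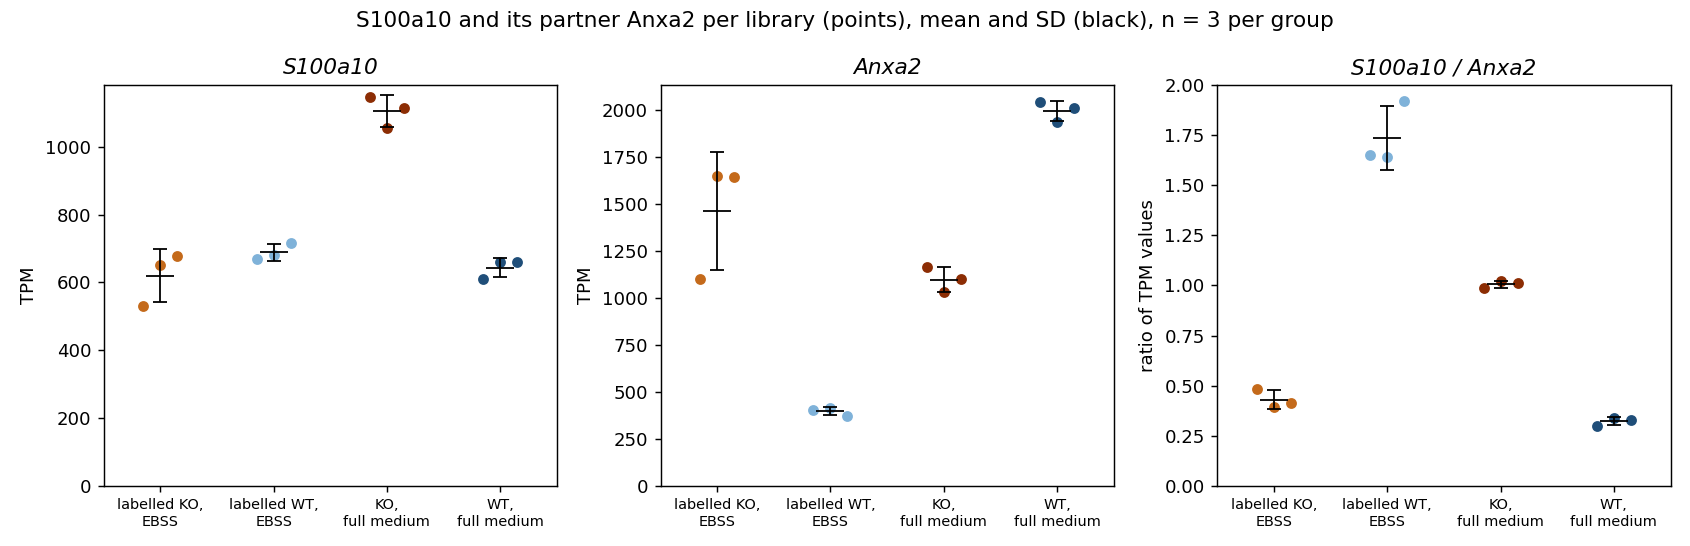
TPM of S100a10, TPM of Anxa2 and the ratio of both in every library (points), with the group mean and SD in black (n = 3), on linear axes that start at 0. The ratio averages 0.43 and 1.74 in the libraries labelled KO and wildtype in EBSS, and 1.01 and 0.322 in KO and wildtype full-medium libraries, with no overlap between the KO and wildtype labels within a medium.

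Of 6 tested receptors of extracellular S100 proteins, 1 rose and 4 fell. Alcam, an adhesion molecule of the immunoglobulin family, fell to 7.47 TPM in KO cells, against 66.4 TPM in wildtype cells (log2 change -2.996, limma adjusted p = 3.73e-06). Nptn, or neuroplastin, fell to 124 TPM in KO cells, against 276.5 TPM in wildtype cells (log2 change -1.15, limma adjusted p = 8.64e-07). Bsg, or basigin, rose to 2760 TPM in KO cells, against 1545 TPM in wildtype cells (log2 change 0.84, limma adjusted p = 5.14e-05). Mcam, another adhesion molecule, had a log2 change of -0.435 (limma adjusted p = 0.014), with an adjusted p of 0.168 under median-of-ratios scaling. Ager, which encodes RAGE, averaged 1.11 TPM in KO cells and 7.28 TPM in wildtype cells (log2 change -1.98, limma adjusted p = 4.86e-07) and is named outside the expression minimum for named genes, after its values were seen.

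Among 18 tested genes listed as targets of S100 proteins, most of them intracellular, 4 rose and 8 fell. Plat, the secreted tissue plasminogen activator that meets S100a10 at the cell surface, averaged 12.7 TPM in KO cells and 121.5 TPM in wildtype cells (log2 change -3.16, limma adjusted p = 1.41e-07). Atp2a2, the SERCA2 pump that S100a1 binds, averaged 144 TPM in KO cells and 304 TPM in wildtype cells (log2 change -1.09, limma adjusted p = 0.00178). Myh9, the heavy chain of the myosin that S100a4 binds, averaged 288 TPM in KO cells and 529 TPM in wildtype cells (log2 change -0.88, limma adjusted p = 0.00528), and the scaffold Iqgap1 averaged 82.8 TPM in KO cells and 148 TPM in wildtype cells (log2 change -0.84, limma adjusted p = 0.000215). Of 28 other EF-hand genes, 6 rose and 11 fell. Rcn1 and Rcn3, calcium-binding proteins of the endoplasmic reticulum, had log2 changes of -3.41 and -3.10 (limma adjusted p = 2.99e-08 and 5.69e-08), Myl12b, a myosin light chain, one of -1.71 (limma adjusted p = 1.36e-06), and Cib1, a calcium- and integrin-binding protein, one of 1.06 (limma adjusted p = 0.00016).

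In EBSS, with the labels as given, S100a16 was higher and S100a1, S100a6 and S100a13 were lower in the libraries labelled KO. The median of all tested genes was 0.91 in this comparison, and the members' median was -0.55. Of the 8 members 1 was called higher and 3 lower (unadjusted p under 0.05 for 4), where 71.9% of all tested genes were called higher and 8.58% lower, and nothing is read from it. Under median-of-ratios scaling 4408 genes were called higher and 3665 lower, and 7 members were called, against 9097 and 1085 genes and 4 members as deposited.

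S100a16 had 26.2, 35.6 and 35.8 TPM in EBSS libraries labelled KO, against 7.85, 8.74 and 13.2 TPM in those labelled wildtype (log2 change 1.63, SE 0.19). S100a1 had 26.8, 27.0 and 25.6 TPM in EBSS libraries labelled KO, and 47.9, 51.7 and 54.0 TPM in those labelled wildtype (log2 change -0.92, SE 0.07). Neither pair overlapped. S100a13 had 32.0, 55.2 and 55.8 TPM in EBSS libraries labelled KO, and 76.9, 70.5 and 63.5 TPM in those labelled wildtype (log2 change -0.59, SE 0.18), again without overlap. Without the low replicate 1 of the libraries labelled KO its log2 change was -0.33.

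S100a6 had 1139, 2401 and 2147 TPM in EBSS libraries labelled KO, and 3384, 2299 and 3454 TPM in those labelled wildtype (log2 change -0.73, SE 0.26). It overlapped, and its call was lost without replicate 1 of the libraries labelled KO (log2 change -0.40), and without replicate 1 or 3 of those labelled wildtype (-0.64 and -0.63). Under quantile normalization (-0.11) and in the fit of the 6 EBSS libraries alone (-0.73) it was not called either. S100a4 had 484, 1658 and 1787 TPM in EBSS libraries labelled KO, and 1704, 2070 and 1561 TPM in those labelled wildtype, EBSS. The first library was low, the others overlapped, and the log2 change of -0.65 (SE 0.38) was -0.04 without it. S100a11 had 1056, 2157 and 2396 TPM in EBSS libraries labelled KO, and 1867, 2627 and 3202 TPM in those labelled wildtype, EBSS, and its log2 change was -0.51 (SE 0.27) with that library and -0.14 without it. Without replicate 3 of the libraries labelled KO, 7 members were called.

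S100a10 had 531, 650 and 678 TPM in EBSS libraries labelled KO, and 667.5, 680 and 716.5 TPM in those labelled wildtype (log2 change -0.16, SE 0.09), with overlap and with a log2 change of -0.05 without replicate 1 of the libraries labelled KO. S100a7a had 5.49, 3.73 and 3.60 TPM in EBSS libraries labelled KO, and 6.06, 7.69 and 0 TPM in those labelled wildtype, EBSS. Its sign rested on the library listed at 0, with a log2 change of 0.40 (SE 0.61) with it and -0.59 without it. That same library, replicate 3, had 8.95 TPM of S100a14 and 35.8 TPM of S100a3, against 0.184 and 0.292 TPM of S100a14 and 13.5 and 15.9 TPM of S100a3 in replicates 1 and 2. S100a3 averaged 3.93 TPM in EBSS libraries labelled KO, and 21.7 TPM in those labelled wildtype (log2 change -2.09, limma adjusted p = 4.4e-05). Of the 62 partner genes 53 rose and 2 fell in the libraries labelled KO, EBSS, with a median log2 change of 1.01 beside 0.91 over all tested genes. Anxa2 averaged 1464 TPM in EBSS libraries labelled KO, and 398 TPM in those labelled wildtype (log2 change 1.86, limma adjusted p = 2.91e-07), and the S100a10 to Anxa2 ratio was 0.43 ± 0.0471 in the libraries labelled KO, EBSS and 1.74 ± 0.159 in those labelled wildtype (SD, n = 3 each).

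EBSS was also set against full medium within each label. This asks how cells without and with RBBP5 respond to starvation, as far as the genotype and medium labels hold. These comparisons share libraries with those above. The libraries labelled KO, EBSS lay close to the wildtype full-medium libraries, as given below. The changes of the 6 members called under the KO label thus resemble those between KO and wildtype in full medium, with the sign reversed. In the cells labelled KO, S100a1, S100a6, S100a7a, S100a10, S100a11 and S100a13 were lower in EBSS, with log2 changes of -2.70 (SE 0.07), -1.12 (SE 0.26), -4.12 (SE 0.61), -0.84 (SE 0.09), -1.39 (SE 0.27) and -1.79 (SE 0.18). None of these 6 overlapped between the EBSS and full-medium libraries labelled KO, and S100a4, which was not called, did not overlap either. Overlap was not counted over all tested genes, so nothing is read from it. Without replicate 1 of these EBSS libraries the log2 changes were -0.79 (S100a6), -0.73 (S100a10), -1.02 (S100a11) and -1.53 (S100a13), while S100a7a went to -4.28. These members were still called. S100a7a averaged 4.27 ± 1.05 TPM in EBSS and 89.6 ± 7.14 TPM in full medium, and S100a1 averaged 26.5 ± 0.761 TPM in EBSS and 178 ± 4.07 TPM in full medium (SD, n = 3 each). S100a4 (-0.83, SE 0.38) and S100a16 (-0.08, SE 0.19) were not called. The value of S100a4 was -0.215 without replicate 1 of the EBSS libraries labelled KO, and it was called without replicate 2 (-1.10) or 3 (-1.16) of them. Thus 0 of 8 members were called higher and 6 lower (unadjusted p under 0.05 for 6), where 33.3% of all tested genes were called higher and 20.9% lower and the median was 0.13. Among the tested S100 genes outside the list 4 were lower and S100g was higher. The lower calls of S100a2 and S100a14 follow from their entry into the test through the KO full-medium libraries. Nothing is read from that count. Of the partner genes 23 rose and 16 fell. The all-gene counts were 3290 higher and 3320 lower under median-of-ratios scaling, against 4217 and 2644 as deposited.

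In the cells labelled wildtype, S100a1 averaged 51.2 ± 3.06 TPM in EBSS and 22.8 ± 1.25 TPM in full medium (log2 change 1.14, SE 0.07), and S100a16 averaged 9.93 ± 2.87 TPM in EBSS and 34.0 ± 1.92 TPM in full medium (log2 change -1.71, SE 0.19). Those 2 were the members called, 1 higher and 1 lower (unadjusted p under 0.05 for 2), where 9.25% of all tested genes were called higher and 71.8% lower and the median was -0.94. The other members had log2 changes of -0.11 (S100a4), 0.38 (S100a6), -1.05 (S100a7a), 0.10 (S100a10), 0.29 (S100a11) and 0.35 (S100a13), of which all but that of S100a7a were above the median of all genes. S100a7a was at -0.06 without replicate 3 of the EBSS libraries labelled wildtype, which listed it at 0, and it was called without replicate 2 (-1.62). The sign of S100a4 was positive under median-of-ratios scaling (0.89), and those of S100a6 and S100a11 were negative under quantile normalization (-0.28 and -0.31). Median-of-ratios scaling gave 3837 higher and 4523 lower genes, against 1170 and 9090 as deposited. Of the 62 partner genes 2 rose and 54 fell in EBSS.

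Groups that differ in both factors were compared because of what Rbbp5 showed. Between the libraries labelled KO, EBSS and the wildtype full-medium libraries, 0 of the 8 members and 0 of the 62 partner genes were called by limma, with an unadjusted p under 0.05 for 1 and 11. Of all tested genes 0.0869% were called higher and 0.0474% lower. Over the tested genes, replicates 2 and 3 labelled KO, EBSS correlated at 0.99 to 0.994 with wildtype full-medium libraries. With KO full-medium libraries they correlated at 0.911 to 0.918. For replicate 1 the values were 0.968 to 0.971 and 0.909 to 0.914. Whether the genotype or the medium label of these libraries holds was not tested. Rbbp5 itself averaged 26.5 TPM in EBSS libraries labelled KO and 26.1 TPM in wildtype full-medium libraries. S100a1 averaged 26.5 ± 0.761 TPM in EBSS libraries labelled KO and 22.8 ± 1.25 TPM in wildtype full-medium libraries (SD, n = 3 each). S100a10 averaged 620 ± 78.2 TPM in EBSS libraries labelled KO and 643 ± 27.7 TPM in wildtype full-medium libraries, where the groups overlapped. S100a6, S100a11, S100a13 and S100a16 overlapped between these groups too. S100a1 stood higher in the libraries labelled KO, EBSS without overlap, and S100a4 and S100a7a stood lower without overlap. For S100a4 the highest value labelled KO, EBSS was 1787 TPM and the lowest wildtype full-medium value 1792 TPM. Overlap between these groups was not counted over all tested genes, so nothing is read from it. The member log2 changes ran between -0.76 (S100a4, -0.15 without replicate 1 of the libraries labelled KO, EBSS) and 0.21 (S100a1). Without replicate 3 of the libraries labelled wildtype, EBSS, which enters only through the shared spread, 1 member, S100a7a, and 3 partner genes were called. Of 12599 genes 93 were called higher and 126 lower in that fit, and nothing is read from these counts.

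Between the libraries labelled wildtype, EBSS and the KO full-medium libraries, 6 members were called lower and 0 higher (unadjusted p under 0.05 for 6), where 11.6% of all tested genes were called higher and 63.5% lower and the median was -0.73. Median-of-ratios scaling gave 3727 higher and 4258 lower genes, against 1467 and 8032 as deposited, and 3 member calls. S100a7a had the lowest log2 change (-4.52, SE 0.61), then S100a1 (-1.78, SE 0.07), S100a16 (-1.72, SE 0.19), S100a13 (-1.20, SE 0.18), S100a11 (-0.88, SE 0.27) and S100a10 (-0.68, SE 0.09). Without replicate 3 of the libraries labelled wildtype, EBSS, which listed S100a7a at 0, the log2 change of S100a7a was -3.53. Relative to the median of all genes S100a10 differed by 0.05 and S100a11 by -0.15. For the genotype by medium interaction, which subtracts the KO against wildtype change in full medium from that in EBSS, 1 member (S100a16) was called higher and 6 lower (unadjusted p under 0.05 for 7), where 64.2% of all tested genes were called higher and 12.5% lower and the median was 1.06. Median-of-ratios scaling gave 4314 higher and 4144 lower genes, against 8123 and 1587 as deposited, and S100a16 was not called under it (0.55) or under quantile normalization (0.47).

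Genes with the most similar course to each member over the 12 libraries were found by the root mean square difference of log2(TPM + 1), each gene centred on its own mean, among 9541 genes. They were Tinagl1 and Acot13 for S100a1 (differences of 0.19 and 0.281), Bok and Fgd3 for S100a4 (both 0.214), Uqcrh and Krt19 for S100a6 (0.212 and 0.248), and Prl2c2 and Ptgds for S100a7a (0.527 and 0.622). For S100a10 they were Acot7 and Rpa1 (0.075 and 0.1), for S100a11 Adamtsl5 and Cisd3 (0.215 and 0.257), for S100a13 the same pair in the other order (Cisd3 0.187, Adamtsl5 0.265), and for S100a16 Dnajc14 and Zfp933 (0.1 and 0.105). The values describe these 12 libraries, which share their group differences. S100a7a, whose own SD over the libraries was 2.01 on that scale, was matched least closely, and no member was among the nearest pair of another.

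Markers of cell types were read beside these results, since fewer cells of a type and less RNA per cell cannot be told apart in bulk RNA. The 11 fibroblast markers were all detected, with 0 higher and 9 lower in KO cells in full medium. Of all tested genes 20.1% were called higher and 35.8% lower there, and nothing is read from the marker counts here or below. The fibroblast markers summed to 4433 to 5134 TPM in KO full-medium libraries and 7282 to 7329 TPM in wildtype full-medium libraries. In EBSS their sums were 5499 to 7395 TPM in the libraries labelled KO and 3219 to 3620 TPM in those labelled wildtype. There 10 of the 11 were called higher under the KO label and 0 lower. Of all tested genes 71.9% were called higher and 8.58% lower in that comparison. Skeletal muscle markers summed to 54.6 to 67.7 TPM in KO full-medium libraries and 3.39 to 4.34 TPM in wildtype full-medium libraries, of which Acta1 averaged 51.7 TPM in KO cells and 0.752 TPM in wildtype cells, while Myod1, Myog, Myh3 and Ckm were near 0. Of the 8 listed, 3 were tested, 2 higher and 1 lower.

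Keratinocyte and epithelial markers summed to 18.2 to 19.1 TPM in KO full-medium libraries and 8.21 to 8.69 TPM in wildtype full-medium libraries (4 of 9 tested, 3 higher and 0 lower), with Krt5, Krt14, Krt1, Epcam and Cdh1 at or near 0. Myeloid markers summed to 64.3 to 69.1 TPM in KO cells and 28.7 to 29.7 TPM in wildtype cells (3 of 7 tested, 1 higher and 1 lower), carried by Cd68 with Ptprc and Adgre1 near 0. The only neutrophil marker of 6 that was tested, Ly6g, averaged 17.3 TPM in KO cells and 5.49 TPM in wildtype cells, with Retnlg at 0 and Mpo, Elane, Camp and Ngp near 0. Glial and neuronal markers summed to 26.7 to 30.5 TPM in KO cells and 15.5 to 16.2 TPM in wildtype cells (3 of 6 tested, 0 higher and 0 lower by limma, 2 with an unadjusted p under 0.05), mostly from Tubb3, and endothelial markers to 0.894 to 1.11 TPM in KO cells and 3.32 to 3.57 TPM in wildtype cells (1 of 5 tested, and lower).

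In EBSS, keratinocyte and epithelial markers summed to 6.74 to 9.64 TPM in libraries labelled KO and 14.6 to 22.9 TPM in those labelled wildtype (1 higher and 1 lower of 4 tested). Myeloid markers summed to 29.8 to 33.3 TPM in libraries labelled KO and 21.9 to 85.1 TPM in those labelled wildtype (1 higher and 1 lower of 3 tested), where Lyz2 averaged 0.528 TPM in libraries labelled KO and 17.9 TPM in those labelled wildtype, with a range of 2.22 to 48.4 TPM across the libraries labelled wildtype. Skeletal muscle markers summed to 5.01 to 6.80 TPM in libraries labelled KO and 6.80 to 16.4 TPM in those labelled wildtype, with Acta1 at 1.45 TPM on average under the KO label and 7.94 TPM under the wildtype label. Neutrophil markers summed to 3.14 to 5.68 TPM in libraries labelled KO and 0.169 to 2.06 TPM in those labelled wildtype, glial and neuronal markers to 16.2 to 47.1 TPM (KO label) and 20.2 to 28.2 TPM (wildtype label), and endothelial markers to 3.10 to 3.82 TPM (KO label) and 1.58 to 7.35 TPM (wildtype label). Between the EBSS labels 71.9% of all tested genes were called higher and 8.58% lower, and nothing is read from the marker counts. The part of these markers in the S100 values was not tested.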

How the data were processed

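The authors deposited 1 table of TPM, by gene symbol, for 12 libraries of polyadenylated RNA. Salmon and mm10 are named in the submitters' processing notes, but the Salmon version and annotation are not given there. TPM keeps no depth, so read depth is unknown and no interval for counting error is given. Symbols with at least 1 TPM in at least 3 libraries were tested on log2(TPM + 1) with limma 3.58.1 (R 4.3.3), with 4 group means over all 12 libraries and a variance trend. P-values are two-sided and Benjamini-Hochberg adjusted over all 12653 genes, with a threshold of 0.05. The fit was checked on simulated data.

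The members, lists and tests were chosen with earlier results of these data known. In full medium up to 4 called genes per partner list with a mean of at least 10 TPM in 1 group are named, by largest log2 change, and elsewhere counts are given with Anxa2. Flanking genes were described after their values were seen. Nearest genes have a mean of at least 5 TPM, without predicted, pseudogene or ribosomal protein names. Positions are from GENCODE vM21, promoters from RefSeq, and figures from matplotlib 3.10.9. Alternatives were pseudocounts, filters, scalings, no variance trend, a replicate block, 6-library fits and libraries left out.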

Additional observations from a re-analysis of the deposited data

Results flagged for a closer look

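For 7 members the change between KO and wildtype labels differed between EBSS and full medium by limma's interaction term in the fit across all genes. On the log2 scale the EBSS change minus the full-medium change was -3.84 (-3.839) for S100a1, -1.5 for S100a6, -3.07 (-3.071) for S100a7a, -0.94 (-0.938) for S100a10, -1.68 (-1.683) for S100a11, -2.14 for S100a13 and 1.63 (1.629) for S100a16. The call was lost for S100a16 under median-of-ratios scaling (0.548) and quantile normalization (0.472), for S100a6 under quantile normalization (-0.759) and for S100a7a with a pseudocount of 0.1 (-2.279). Without replicate 3 of the libraries labelled wildtype, EBSS, the value of S100a7a was -4.061. The members were chosen with these values known, 64.2% of all tested genes were called higher and 12.5% lower for the same term, and Rbbp5 went against the labels in EBSS, so each value rests on labels in doubt.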

How the results depend on the processing

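Of the recomputed member changes 1199 kept their direction and their side of the threshold, 27 changed sign but were not called either way, 32 passed the threshold newly, 19 no longer passed it and 3 changed sign with a call on one side. Those 3 were S100a7a between the EBSS labels (0.40 as reported), at -0.59 without replicate 3 of the libraries labelled wildtype and -0.748 (chosen after seeing the data) also without replicate 1 of those labelled KO, with -0.59 to 0.97 over all libraries left out, and S100a10 between the libraries labelled wildtype, EBSS and KO full medium, at 0.128 under median-of-ratios scaling. Between the EBSS labels 4 members were called, 7 under median-of-ratios scaling and with ribosomal protein genes left out, and 3 to 7 without single libraries. Of all genes 9097 were called higher and 1085 lower as deposited, and 4408 and 3665 under median-of-ratios scaling. With ribosomal protein genes left out 7163 and 1898 of 12822 were called. Without single libraries the range was 8809 to 9393 higher and 962 to 1223 lower. For EBSS in the cells labelled wildtype 2 were called, 6 under median-of-ratios scaling, 4 under quantile normalization and 6 with ribosomal protein genes left out. Of all genes 1170 were called higher and 9090 lower as deposited, and 3837 and 4523 under median-of-ratios scaling. Quantile normalization gave 3897 and 4203, and leaving out ribosomal protein genes gave 2016 and 7239 of 12822. Between the libraries labelled KO, EBSS and wildtype full medium 0 members were called, 0 to 1 without single libraries and 1 without both named above. Of partner genes 0 were called, against 1 under quantile normalization, 2 with the 6 libraries alone, 0 to 3 without single libraries and 9 without both. Of all genes 11 were called higher and 6 lower as deposited, and 37 and 19 under quantile normalization. The 6 libraries alone gave 120 and 303 of 12152. Without single libraries 0 to 93 were higher and 0 to 126 lower, and without both 253 and 495 of 12544. Between the libraries labelled wildtype, EBSS and KO full medium 6 members were called, 3 under median-of-ratios scaling. Outside the member list, the 5 calls in full medium became 3 with a pseudocount of 0.1, where 2352 genes were called higher and 4211 lower. With a mean of at least 5 TPM only S100a3 was still tested, and it was called. Of 9870 genes 2046 were called higher and 3360 lower under that filter. Same-numbered libraries deviated together with correlations between -0.073 and 0.079, so the numbers do not pair them, and a replicate block left 6 members called in full medium and 4 between the EBSS labels. The causes were not tested, and nothing is read from the counts of calls under the alternatives. Low genes such as S100a2, S100a5 and S100g are limited by an unknown depth.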
